A study of Mus musculus with 6 samples.

Results

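Histone genes were compared between the prefrontal cortex of BTBR T+ Itpr3tf/J mice, an inbred strain used as a mouse model of autism, and that of C57BL/6J wild-type mice, the common reference inbred strain. The genes were taken as every probe whose gene name on the array begins with Hist1h, Hist2h, Hist3h, Hist4h, H2af, H3f or H1f. This gave 52 gene names, of 27373 gene or transcript names on the array, measured by 70 of its 41174 probes that are not controls. Of these, 45 probes belong to the replication-dependent genes that lie in clusters (Hist1 to Hist4) and 25 to the variant genes (H2af, H3f and H1f). Whole prefrontal cortex came from 3 male mice per strain, aged 5 months and untreated, with 1 one-colour array per mouse. The BTBR samples carry that strain as their genotype, while their field for strain background reads C57BL/6J. All animals of a group come from 1 inbred strain, so each value compares these strains as a whole and no single allele.

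Histones are the proteins around which DNA is wound. H2A, H2B, H3 and H4 form the core of the nucleosome, and H1 binds the linker DNA between nucleosomes. Cluster genes are made mainly in S phase, and their mRNAs end in a stem-loop in place of a poly(A) tail. Variant histones such as H3.3 and H2A.Z come from polyadenylated mRNAs that are made throughout the cell cycle, and they are the main supply of new histones in cells that no longer divide, such as cortical neurons. Many cluster genes are near-identical copies of each other.

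Each level below is the log2 of a probe's signal relative to the 75th percentile of its array, so 0 is that percentile. Between 28100 and 30665 probes per array were well above background. Only probes that cleared background on 3 or more of the 6 arrays were tested, which left 30011 probes, 62 of them histone probes. Of the 45 cluster probes 38 were tested, and of the 25 variant probes 24. Strains were compared probe by probe with limma, and a probe is called when its Benjamini-Hochberg adjusted p over all tested probes is under 0.05. The p-values rest on the spread among 3 mice per strain.

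Signal at the H4 probes was lower in BTBR, while probes for the other core histones, the linker histones and the variants mostly did not pass the test. The labelling kit is of a kind that primes from poly(A) tails, in place of which cluster mRNAs end in a stem-loop. How far a cluster probe reads these mRNAs was not tested, which limits the H4 result and the comparison of cluster with variant genes. Of 38 tested cluster probes 8 fell in BTBR and 0 rose, where 3.25% of all tested probes were called lower, 2.19% higher and 5.44% in either direction. These 8 were all 7 tested H4 probes and 1 H2A probe. Of 24 tested variant probes 0 were called by limma, 2 had an unadjusted p under 0.05 (16.8% of all tested probes did), and 0 were called with normexp background correction. The median log2 difference, BTBR minus C57BL/6J, was -0.18 over the cluster probes, -0.01 over the variant probes and 0.04 over all tested probes. Without H4 the cluster median was -0.02, and 1 of 31 probes was called. Of the 38 cluster probes, 2 H2B probes were well above background in C57BL/6J alone and so were tested only through the strain in which they are high. Over the other 36 the cluster median was -0.13 with the same count of 8, and over the 29 of these that are not H4 it was 0.05. Of these 29, 7 had an unadjusted limma p under 0.05, where 16.8% of all tested probes did. At 10 of the 29 the strains did not overlap, where 22.8% of all tested probes did not. Both counts mix directions and hold probes that share a run of bases. Among them are those of Hist1h2bk, Hist1h2bm and Hist3h2bb-ps, which share a run and were lower in BTBR, and Hist3h2ba, which was higher. The difference between the classes, and that between H4 and the other families, was described by these counts and not tested.

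**Figure D1:**
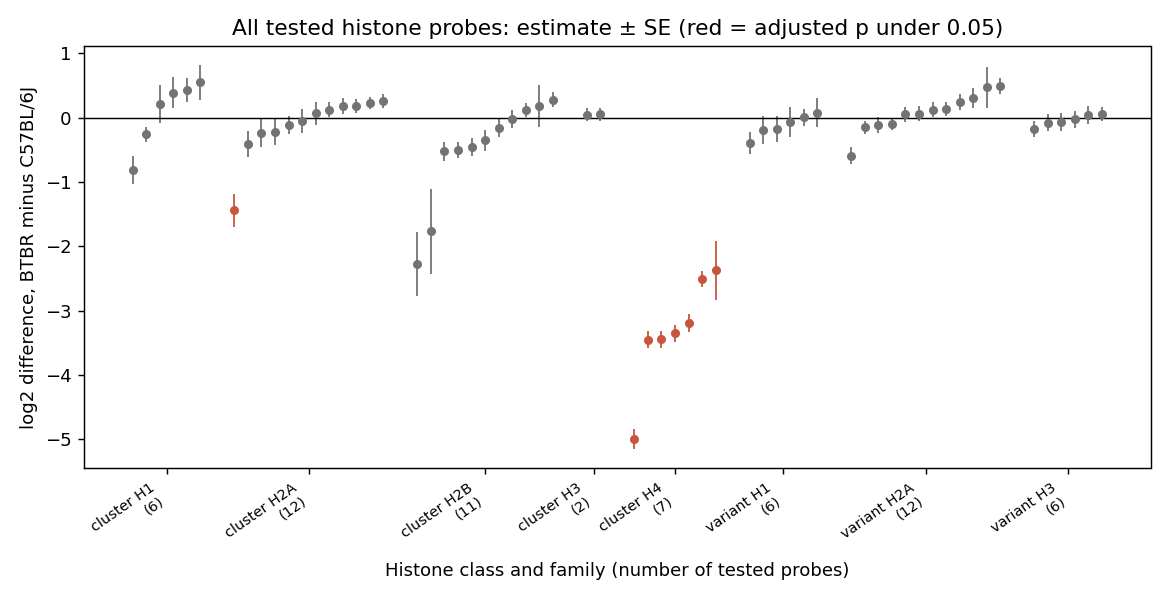
Log2 difference (BTBR minus C57BL/6J) with its standard error for each of the 62 tested histone probes, by class and family. Called probes are red. All 7 H4 probes lie between -4.99 and -2.37, and of the other families 1 H2A probe is called.

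The probe sequences are given first for H4, since several of these probes read the same stretch of near-identical genes and are then not separate measures of separate genes. H4 is the core histone that pairs with H3. The first set is 3 probes of Hist1h4d (chr13:23673665-23673724, plus strand), Hist1h4f (chr13:23643249-23643308, minus strand) and Hist2h4 (chr3:96066953-96067012, minus strand), positions in mm9 per the array's annotation. Capitals mark the run of 29 bases that all 3 share.
Hist1h4d: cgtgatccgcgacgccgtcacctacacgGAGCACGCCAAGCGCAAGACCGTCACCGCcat
Hist1h4f: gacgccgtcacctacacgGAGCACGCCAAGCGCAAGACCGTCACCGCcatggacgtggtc
Hist2h4: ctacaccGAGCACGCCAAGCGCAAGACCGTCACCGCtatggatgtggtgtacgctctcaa

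The probes named Hist1h4d and Hist1h4f share a run of 50 bases, all that they overlap by. By its accessions the first of them stands for 4 H4 genes and the second also for 4. The Hist2h4 probe aligns to that of Hist1h4f over 49 bases with 4 mismatches, and its accessions name 1 gene.

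The next pair reads another stretch of H4, with a shared run of 21 bases in capitals. The Hist1h4d probe lies at chr13:23673507-23673566 (plus strand) and that of Hist1h4a at chr13:23852901-23852960 (minus strand). The Hist4h4 probe, at chr6:136752717-136752776 (minus strand), is shown because it shares no run of 20 bases with another histone probe.
Hist1h4d: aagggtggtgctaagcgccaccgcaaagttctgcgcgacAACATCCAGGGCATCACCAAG
Hist1h4a: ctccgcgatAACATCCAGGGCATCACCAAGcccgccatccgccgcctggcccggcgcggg
Hist4h4: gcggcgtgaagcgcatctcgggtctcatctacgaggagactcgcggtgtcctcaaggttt

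Of the probes of the 29-base set, Hist1h4d read 4.57, 4.33 and 4.75 in the C57BL/6J mice and 1.10, 1.16 and 1.07 in the BTBR mice. It fell 10.9-fold (log2 difference -3.44 ± 0.13 SE, limma adjusted p = 8.99e-05). Hist1h4f read 4.76, 4.54 and 4.92 against 1.44, 1.44 and 1.30, a 10.2-fold fall (-3.35 ± 0.13). The strains did not overlap at either probe, and the BTBR mice lay close together. The Hist2h4 probe, from the histone cluster on chromosome 3, read 3.57, 3.33 and 3.74 against 0.13, 0.16 and -0.00. It fell 10.9-fold (-3.45 ± 0.14, limma adjusted p = 8.99e-05). These 3 estimates lay within their standard errors of each other, but probes that share a run can bind the same RNAs.

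In the pair with the 21-base run, the Hist1h4d probe read 2.38, 2.16 and 2.68 in C57BL/6J and -2.59, -2.50 and -2.66 in BTBR. This was the largest difference among the histone probes, 31.9-fold (-4.99 ± 0.15, limma adjusted p = 4.77e-05). The other Hist1h4d probe, with 4 named genes, differed by -3.44, so probes of 1 gene name differed in size and had the same direction. The Hist1h4a probe, whose accessions name 3 H4 genes, read 3.02, 2.74 and 3.20 against -0.23, -0.20 and -0.16. It fell 9.09-fold (-3.18 ± 0.14). The SD among mice was 0.04 in BTBR and 0.23 in C57BL/6J, so the gap between strains was many times the spread in either.

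Hist4h4 is a lone H4 gene away from the large clusters, on chromosome 6. Its probe read 0.91, 0.88 and 1.18 in C57BL/6J and -1.45, -1.51 and -1.58 in BTBR. It fell 5.67-fold (-2.50 ± 0.12, limma adjusted p = 0.000168), with no overlap. Its other probe was not well above background on any array and gave no value. The Hist1h4i probe (chr13) read -1.29, -1.28 and -0.58 against -4.10, -3.76 and -2.39. It fell 5.16-fold (-2.37 ± 0.46, limma adjusted p = 0.0370), with the widest spread of the H4 probes. BTBR replicate 3 stood above the other BTBR mice there and still below each C57BL/6J mouse.

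**Figure D2:**
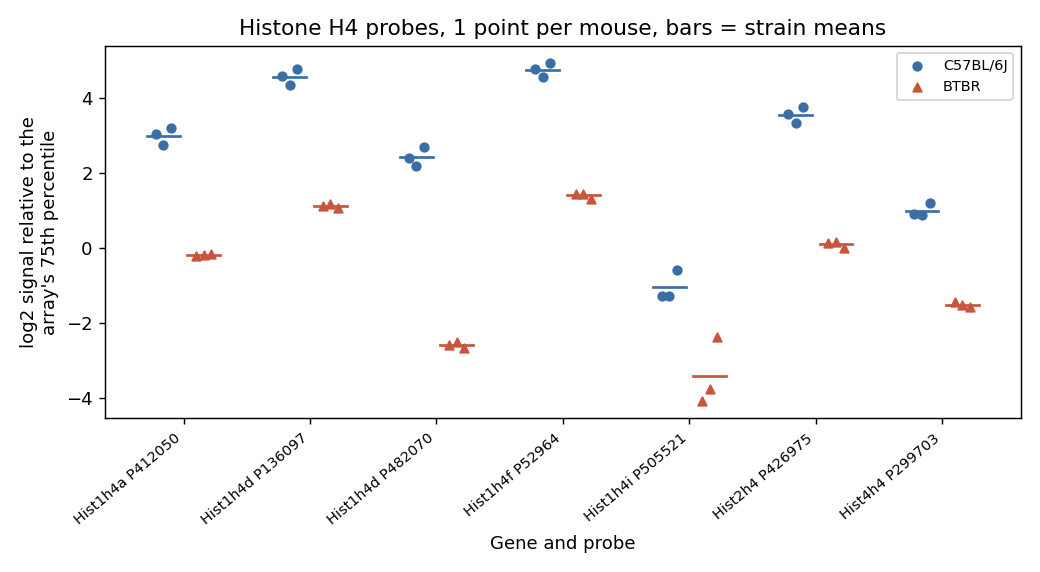
Log2 signal relative to each array's 75th percentile for the 7 tested H4 probes, with 1 point per mouse and a bar at each strain's mean (n = 3). The BTBR mice lie below the C57BL/6J mice at each probe, and at Hist1h4i the BTBR mice are spread from -4.10 to -2.39.

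By the positions given for the probes, those on each chromosome fell, although probes that share a run do not place the fall on 1 chromosome. On chromosome 13 all 5 tested H4 probes fell (-4.99 to -2.37), against 1 of 20 tested cluster probes of other families there. On chromosome 3 the 1 H4 probe, that of Hist2h4 with the 29-base run, fell and 0 of 6 others did. On chromosome 6 the 1 tested H4 probe, that of Hist4h4, which shares no run with another probe, fell. Probes were compared only with each other and not with transcripts, so whether the Hist4h4 probe reads RNA of other H4 genes was not tested. All 7 H4 probes had no overlap between strains with BTBR lower, which held for 11% of all tested probes. All 7 were also at least 4-fold lower and called, which held for 0.943% of all tested probes. The median H4 difference was -3.35 over all arrays, -3.21 on slide 1 (replicates 1 and 2 of each strain) and -3.62 on slide 2 (replicate 3 of each).

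Of the 7 H4 probes, 6 kept their call in every alternative they entered (18 of 18 for the Hist1h4d probe at -4.99 and 19 of 19 for the others). Hist1h4i lost its call with normexp background correction (-1.69, limma adjusted p = 0.112), without the filter on dim probes (0.0743), and when any mouse but BTBR replicate 3 was left out. Those 5 fits gave limma adjusted p = 0.0997 to 0.120, and the range over all its alternatives was 0.00255 to 0.120. With the authors' deposited log2 values all 7 differences were negative, from -3.97 at Hist1h4d to -1.20 at Hist1h4i.

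**Figure D3:**
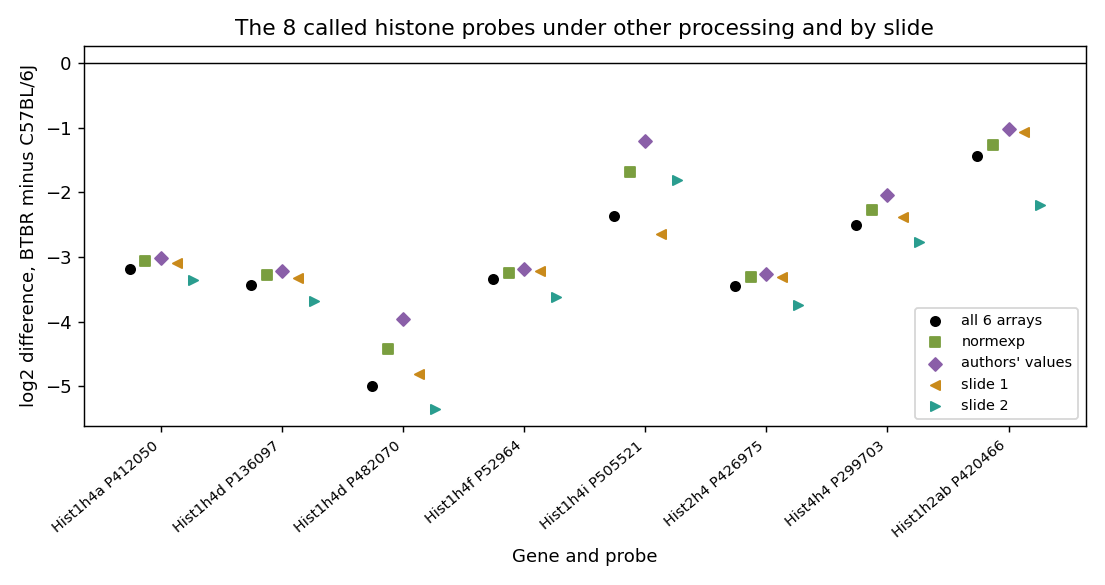
Log2 difference (BTBR minus C57BL/6J) of the 8 called histone probes from all 6 arrays, with normexp background correction, from the authors' deposited values, and on each slide alone. Every point lies below 0, and Hist1h4i and Hist1h2ab move most in proportion to their size.

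Promoter sequences are shown for the H4 genes because their probes moved together. H4 promoters are known for a short element, GGTCCG, that the factor HINFP binds at the onset of S phase. RefSeq promoters of GRCm38.p6 (250 bases before the gene start and 50 after it) were matched to 44 of the 52 member genes by current symbol. The letters GGTCCG, searched on both strands, stood in 11 of the 12 H4 promoters that the table holds (91.7%), all on the gene's own strand. Of these 12 genes 5 are named by probes here, 4 of them with the letters, and the other 7 genes, all with the letters, have no probe under their own name. They stood in 4 of 40 promoters of the histone genes here that are not H4 (10%) and in 8.25% of all 32851 promoters. The 60 bases before the gene start follow, with the element in capitals.
Hist1h4d (chr13:23581508-23581567, plus strand): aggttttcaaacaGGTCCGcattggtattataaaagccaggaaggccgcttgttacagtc
Hist1h4f (chr13:23551669-23551728, minus strand): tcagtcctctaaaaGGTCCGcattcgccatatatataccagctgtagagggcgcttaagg
Hist1h4i (chr13:22041363-22041422, minus strand): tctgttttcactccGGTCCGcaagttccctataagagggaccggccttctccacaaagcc
Hist4h4 (chr6:136804432-136804491, minus strand): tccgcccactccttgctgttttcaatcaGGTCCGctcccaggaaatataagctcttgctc
Hist1h4a (chr13:23761250-23761309, minus strand): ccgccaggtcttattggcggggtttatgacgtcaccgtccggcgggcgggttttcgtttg

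The element began 32 bases before the start of Hist4h4 and 46 or 47 before those of Hist1h4i, Hist1h4f and Hist1h4d. Hist1h4a was the H4 gene without these letters in its 300 bases, and its probe also fell. Its probe stands for 3 genes, so the fall cannot be assigned to 1 promoter. The same limit holds for the Hist1h4f probe and for the Hist1h4d probe of the 29-base set, which each stand for 4 genes. What the Hist1h4i probe reads is not known here. Hist2h4 had no promoter in the table.

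H2B, which forms a dimer with H2A, was measured by 11 tested cluster probes, of which 0 were called by limma and 0 with normexp. Over the 9 that were well above background in both strains the median difference was -0.15, on slide 1 -0.18 and on slide 2 -0.37. Of these 9, 4 had an unadjusted p under 0.05, where 16.8% of all tested probes did. They were the Hist1h2bk, Hist1h2bm and Hist3h2bb-ps probes shown next, which share a run and were lower in BTBR, and that of Hist3h2ba. The Hist3h2ba probe was higher in BTBR (0.28 ± 0.11, limma adjusted p = 0.287). The set shown is Hist1h2bk (chr13:22127928-22127987, plus strand), Hist1h2bm (chr13:21814139-21814198, plus strand) and Hist3h2bb-ps (chr11:58767697-58767756, minus strand), because they share a run of 26 bases, in capitals, across 2 chromosomes.
Hist1h2bk: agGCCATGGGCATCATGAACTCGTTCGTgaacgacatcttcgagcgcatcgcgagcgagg
Hist1h2bm: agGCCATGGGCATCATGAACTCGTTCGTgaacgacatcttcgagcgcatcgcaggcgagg
Hist3h2bb-ps: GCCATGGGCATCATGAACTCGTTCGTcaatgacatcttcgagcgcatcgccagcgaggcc

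Their differences were -0.46 (limma adjusted p = 0.157), -0.52 (0.125) and -0.50 (0.0862). The strains did not overlap at any of the 3, with BTBR lower, which held for 11% of all tested probes. None passed the test. Because of the shared run, the 3 are not separate measures of separate genes. The first pair of probes matches at 58 of 60 bases and each stands for 4 H2B genes by its accessions. For the Hist3h2bb-ps probe the annotation names 1 gene, that of Hist3h2ba. The probe named Hist3h2ba differed by 0.28, opposite in sign.

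The other 2 H2B probes were well above background on every C57BL/6J array and on no BTBR array. They passed the filter only through C57BL/6J, so no test is given for them. Hist1h2be read -5.71, -5.92 and -4.60 in C57BL/6J and -8.44, -6.83 and -7.78 in BTBR, with no overlap. On the processed signal its level was at least 1.97-fold lower in BTBR, set against the lowest signal that counts as well above background. The log2 difference was smaller with normexp (-0.71) and in the authors' deposited values (-0.17), so the bound holds for the processed signal alone. Hist1h2bp read -6.11, -5.35 and -6.55 against -6.50, -7.69 and -9.13, where the strains overlapped. The bound was at least 1.31-fold lower on the processed signal, while the authors' deposited values differed by -0.08. A bound here takes the dim strain at the higher of its own signal and the floor of each array.

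H2A was measured by 12 tested cluster probes, with a median difference of 0.01 and 1 call. The called probe was Hist1h2ab, which read -0.46, -0.56 and -0.20 in C57BL/6J and -1.71, -1.44 and -2.39 in BTBR. It fell 2.71-fold (-1.44 ± 0.25, limma adjusted p = 0.0255), with no overlap. The call was lost in 7 of its 19 alternatives, among them normexp (limma adjusted p = 0.180) and leaving out any C57BL/6J mouse (0.0779 to 0.0934) or BTBR replicate 1 (0.0821). Its range over all alternatives was 0.00595 to 0.180.

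The next H2A set shares a run of 29 bases between 2 cluster genes and a variant gene. Hist1h2aa (chr13:24026659-24026718, plus strand) is known from the testis, Hist1h2af (chr13:23626108-23626167, plus strand) is a cluster gene, and H2afj (chr6:136757181-136757240, plus strand) encodes the replication-independent variant H2A.J.
Hist1h2aa: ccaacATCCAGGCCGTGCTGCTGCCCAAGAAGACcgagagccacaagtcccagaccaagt
Hist1h2af: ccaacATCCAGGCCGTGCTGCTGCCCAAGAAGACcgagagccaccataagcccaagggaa
H2afj: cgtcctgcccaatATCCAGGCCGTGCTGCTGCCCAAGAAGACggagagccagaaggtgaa

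Hist1h2aa read 5.06, 5.17 and 5.13 in C57BL/6J and 5.44, 5.31 and 5.16 in BTBR, a difference of 0.19 ± 0.11. Hist1h2af read 4.99, 5.14 and 5.12 against 5.35, 5.38 and 5.07 (0.18 ± 0.13). The H2afj probe read 5.34, 5.47 and 5.46 against 5.81, 5.71 and 5.48 (0.24 ± 0.12). None of the 3 passed the test (limma adjusted p = 0.407 to 0.566), and BTBR replicate 3 lay lowest of the BTBR mice at each. Because of the shared run, these values cannot be assigned to 1 gene each.

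**Figure D4:**
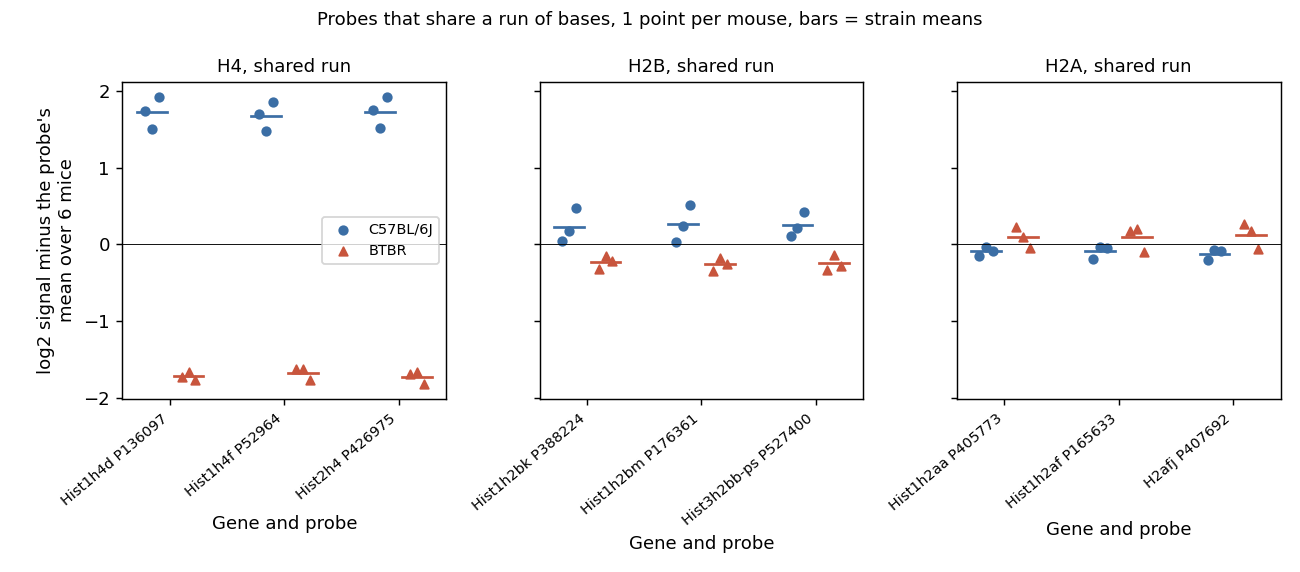
Log2 signal minus each probe's own mean over the 6 mice, for the H4, H2B and H2A probes that share runs of 29, 26 and 29 bases, with 1 point per mouse and a bar at each strain's mean (n = 3). Within each set the probes give nearly the same pattern, with H4 far lower in BTBR and no H2B or H2A probe past the test.

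The other cluster probes of high signal were 2 of Hist2h2ac, an H2A gene of the chromosome 3 cluster, and 1 of Hist2h3c1, an H3 gene there. The Hist2h2ac probes, which share 51 bases, read 4.59, 4.76 and 4.82 against 5.06, 4.99 and 4.91, and 4.75, 4.81 and 4.83 against 5.07, 5.03 and 4.98. Both were above C57BL/6J in every BTBR mouse (0.26 and 0.23), without passing the test (limma adjusted p = 0.314 and 0.298). Hist2h3c1 read 4.28, 4.30 and 4.36 against 4.32, 4.44 and 4.34 (0.05 ± 0.10). The strains overlapped there, as they did at the other tested H3 cluster probe, Hist1h3d (0.05). H3 and H4 enter the nucleosome together as a tetramer, and here 0 of 2 H3 cluster probes and 7 of 7 H4 probes were called.

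Linker histones of the cluster had 6 tested probes and 0 calls by limma or normexp. Where 16.8% of all tested probes had an unadjusted p under 0.05, 1 of these 6 did. That was Hist1h1d at -0.81 (limma adjusted p = 0.104), whose strains did not overlap. The others ranged from -0.26 at Hist1h1c to 0.55 at Hist1h1b.

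Of the 45 cluster probes 7 and of the 25 variant probes 1 were not tested, because they cleared background on too few arrays. The 7 cluster probes had a GC content of 23.3% to 41.7%. Of the cluster probes with a GC content of 50% or more, 26 of 26 were tested, and of those below it 12 of 19 were. Among the probes not tested was that of Hist1h3a (chr13:23853756-23853815, minus strand), the 1 probe that reads across a histone stem-loop. It is shown for the hallmark of this class, 24 bases with the stem-loop in capitals, and it was not well above background on any array.
Hist1h3a: ccaaaGGCTCTTTTCAGAGCCaca

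Copies that share sequence limit what a cluster probe can name. By the accessions given for it, 14 of the 45 cluster probes stood for several genes. Another 14, in part the same, shared a run of at least 20 bases with a probe of another gene, so 20 met either and 25 neither. The annotation lists few accessions per probe, so these counts are lower limits. Of the 19 tested probes that met neither, 3 were called lower, Hist1h2ab, Hist1h4i and Hist4h4, where 3.25% of all tested probes were. The calls of Hist1h2ab and Hist1h4i were each lost in 7 alternatives. The median difference of the 19 probes was 0.07. The accessions name 1 gene for 15 of the 19 and none that matched for 4, among them the Hist1h4i probe, so how many genes those 4 read is not known here. For variants 4 of 25 probes met either.

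The variant genes showed small differences. H2afz, which encodes H2A.Z of promoter nucleosomes, read 4.86, 4.86 and 4.90 in C57BL/6J and 4.73, 4.82 and 4.79 in BTBR at its probe of highest signal. That is -0.09 ± 0.10, without overlap and without passing the test (limma adjusted p = 0.720). The other probe named H2afz differed by 0.47 ± 0.32 (0.557), and by -0.19 with normexp. Its annotated position is on chromosome 6, that of the first on chromosome 3. None of its accessions matched a gene, so what it reads is not known here. H2afv, its paralogue, read 3.64, 3.73 and 3.82 against 3.55, 3.63 and 3.57 (-0.15 ± 0.10). H3f3a and H3f3b both encode H3.3, the replacement H3. H3f3a read 3.91, 3.82 and 3.99 against 3.59, 3.87 and 3.74 (-0.17 ± 0.12), and its other probes differed by -0.02 and 0.05. H3f3b read 4.49, 4.58 and 4.63 against 4.52, 4.68 and 4.69 at 1 probe (0.06 ± 0.11) and 4.48, 4.35 and 4.07 against 4.12, 4.36 and 4.21 at another (-0.07 ± 0.14). The third H3f3b probe differed by -0.08. At each of these 6 H3.3 probes the strains overlapped.

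H2afx encodes H2A.X, which is phosphorylated at DNA breaks, and read 2.65, 2.62 and 2.38 against 2.51, 2.70 and 2.59 (0.05 ± 0.12). H2afy encodes macroH2A1 and read 0.86, 0.82 and 1.04 against 0.84, 1.09 and 0.96 (0.06 ± 0.12), with its other probes at -0.11 and 0.13. H2afy3 read 0.24, 0.09 and 0.13 against 0.25, 0.39 and 0.24 (0.14 ± 0.11). The strains did not overlap at H2afy2, which encodes macroH2A2 and read -5.62, -5.41 and -5.49 against -4.86, -5.09 and -5.09. The accessions of the H2afy2 probe name the genes of both H2afy2 and H2afy3. Its difference of 0.49 ± 0.12 missed the threshold (limma adjusted p = 0.0806) and was -0.20 with normexp, so no direction is given for it. H2afj had a probe outside the shared run that differed by -0.59 ± 0.14 (limma adjusted p = 0.0686), opposite in sign to the 0.24 of the probe in the shared set.

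The linker variant H1f0, known from cells that have stopped dividing, read -0.40, -0.16 and -0.54 against -0.65, -1.04 and -0.60 (-0.39 ± 0.17, limma adjusted p = 0.307), while the other H1f0 probes differed by -0.19 and -0.18. H1fx read -0.63, -0.16 and -0.37 against -0.37, -0.88 and -0.11 (-0.07 ± 0.23). The germ-cell genes H1foo (oocyte linker histone) and H2afb1 read near the floor. H1foo read -5.06, -5.27 and -5.57 against -5.12, -4.91 and -5.63 (0.08 ± 0.22), and H2afb1 -4.60, -4.83 and -4.83 against -4.46, -4.18 and -4.67 (0.31 ± 0.16). Both turned negative with normexp (-0.30 and -0.24), so no direction is given for them. The H1fnt probe was not well above background on any array. Over the 24 tested variant probes the differences ranged from -0.59 to 0.49, and at 7 the strains did not overlap, where 22.8% of all tested probes did not.

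**Figure D5:**
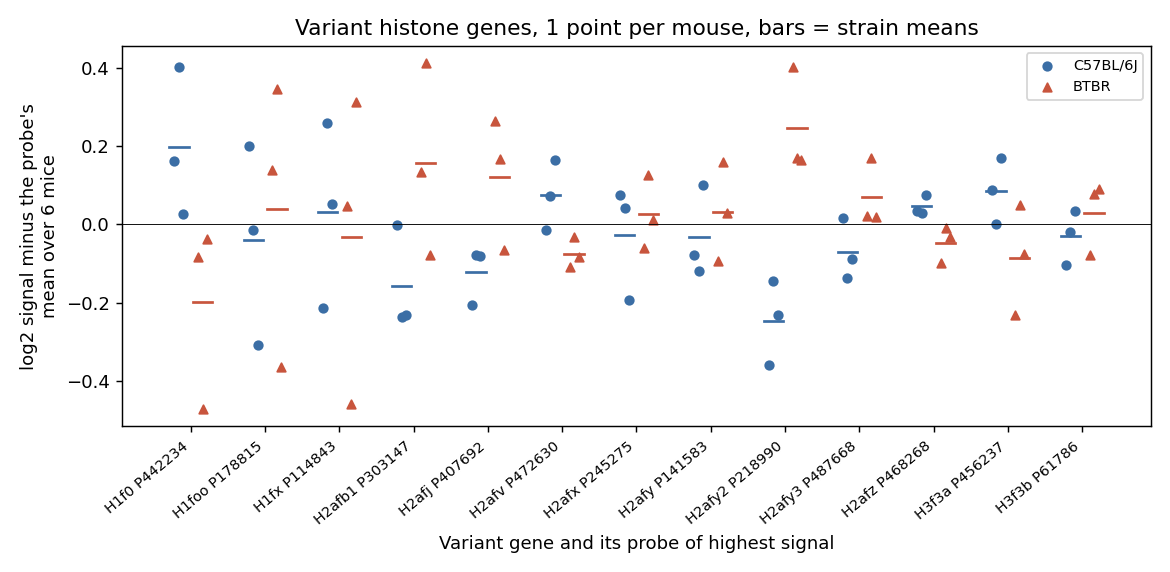
Log2 signal minus each probe's own mean over the 6 mice for the 13 tested variant genes, each at its probe of highest signal, with 1 point per mouse and a bar at each strain's mean (n = 3). Strain means differ by less than a unit of log2 at every gene, with the widest gap, 0.49, at H2afy2.

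Genes that make, carry and use histones were counted from 3 lists. Of 31 tested probes for histone transcription and mRNA 3' end processing, 1 fell and 1 rose, near the share of all tested probes (3.25% lower and 2.19% higher). Sympk, the scaffold of the 3' cleavage complex, fell 2.01-fold (SE 0.12 on the log2 scale, limma adjusted p = 0.00656), with 2.69, 2.85 and 2.96 in C57BL/6J against 1.92, 1.68 and 1.89. Casp8ap2 (FLASH), a factor of histone mRNA processing, rose 1.60-fold (0.68 ± 0.10, limma adjusted p = 0.0139), with -0.92, -0.86 and -0.99 against -0.32, -0.25 and -0.16. Both lost their call with normexp (limma adjusted p = 0.162 and 0.246), and Casp8ap2 also without C57BL/6J replicate 1 or 2 or BTBR replicate 1 or 2 (0.0511 to 0.0657).

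Of 65 tested probes for histone chaperones and exchange factors, 3 fell and 1 rose, again near the 5.44% of all tested probes called in either direction. Hjurp, the chaperone of the centromeric H3, fell 2.78-fold at 1 probe (-1.48 ± 0.19, limma adjusted p = 0.00821) and differed by -0.69 at the other (0.135). Rbbp4, which carries H3 with H4, fell at 1 probe (-1.24 ± 0.17, limma adjusted p = 0.00980), while its other 3 probes differed by 0.06, 0.26 and 0.03. Chaf1a, a subunit of the chaperone that deposits H3 and H4 behind the replication fork, fell 1.60-fold (-0.68 ± 0.11, limma adjusted p = 0.0173). Supt16, a subunit of the FACT complex that handles H2A and H2B, rose 2.52-fold (1.33 ± 0.17, limma adjusted p = 0.00664). Rbbp4 lost its call without C57BL/6J replicate 2 (0.0514), and Chaf1a without C57BL/6J replicate 1 or 2 or BTBR replicate 2 or 3 (0.0516 to 0.0824).

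Of 30 tested probes for S phase and proliferation, 3 rose and 0 fell, where 2.19% of all tested probes were called higher and 5.44% in either direction. The replicative helicase gene Mcm3 rose at 1 probe (1.45 ± 0.12, limma adjusted p = 0.00138) and differed by 0.05 at the other. Rrm2, of nucleotide reduction, rose (0.64 ± 0.10, 0.0174) but read -0.18 with normexp, and the cyclin Ccna2 rose (0.61 ± 0.10, 0.0192). Rrm2 lost its call without C57BL/6J replicate 1 or 2 or BTBR replicate 1 or 3 (0.0517 to 0.106), and Ccna2 without any mouse but C57BL/6J replicate 3 (0.0512 to 0.0897). With normexp 0 of these 9 called probes kept their call, where 0.566% of all tested probes were called. The median differences of the 3 lists were 0.03, 0.04 and -0.03.

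Markers of cell types were set beside these results, since fewer cells of a type and less RNA per cell cannot be told apart in whole tissue. Excitatory neuron markers of the cortex were well above background on all arrays at 16 of 16 tested probes, and their summed linear level was 60.2 to 74.0 in C57BL/6J and 62.6 to 80.9 in BTBR. Oligodendrocyte markers were called lower at 5 of 15 probes, with sums of 164 to 205 against 123 to 141, where 3.25% of all tested probes were called lower. With normexp 0 of them were called, and 2 of the 5 calls remained without BTBR replicate 1, and 3 without C57BL/6J replicate 1, C57BL/6J replicate 2 or BTBR replicate 2. Astrocyte markers had 1 lower call of 12 (75.1 to 86.7 against 71.9 to 86.7) and microglia 1 higher call of 11 (14.6 to 17.9 against 17.9 to 20.4). The astrocyte call, Gfap, was lost without C57BL/6J replicate 1 or BTBR replicate 1 or 2 (limma adjusted p = 0.0558 to 0.0741), and neither was called with normexp. Olfactory bulb and neuroblast markers had 0 calls of 8, a median difference of 0.44 and sums that did not overlap (2.14 to 2.59 in C57BL/6J against 2.67 to 4.35 in BTBR). Oligodendrocyte precursors (20.2 to 26.3 against 20.6 to 24.1) and endothelium with pericytes (23.0 to 26.6 against 24.5 to 26.8) had 0 calls. Striatal markers (25.7 to 225 against 14.7 to 64.0), choroid plexus markers (0.406 to 7.55 against 0.388 to 1.64) and blood markers (45.4 to 55.9 against 43.4 to 116) also had 0 calls and varied between mice. Their median differences were -1.21, -0.84 and 0.80, and that of the oligodendrocyte markers was -0.75. No marker list was at 0, although 3 of 7 choroid plexus probes and 2 of 6 blood probes were not well above background on all arrays. The part of these cell types in the H4 result was not tested.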

How the data were processed

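RNA of whole prefrontal cortex from 3 BTBR and 3 C57BL/6J mice was labelled with Cy3 and hybridised to 6 Agilent arrays with 60-base probes. The kit the labels name, One-Color Quick Amp, is of a kind that primes from poly(A) tails. The deposited scanner files hold a processed signal per spot, already background-subtracted, and the foreground and background intensities that normexp used. Per the file headers the image software was Feature Extraction 10.7.3.1 (9.1 per the submitters' processing notes). The authors' deposited log2 values (series matrix) have an unstated scale. Their medians were 8.82 to 8.83, they correlated with log2 of the scanner signal at 0.915 to 0.929, and their strain differences were smaller (slope 0.549). They served as an alternative.

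From log2 of the processed signal the 75th percentile of the same array was subtracted (859 to 1606.7 in intensity). Spots of a probe were averaged, and spots flagged as outliers were left out where others remained. No spot was saturated. Probes well above background on at least 3 arrays (30011) were fitted with limma 3.58.1 in R 4.3.3 (lmFit, eBayes), with Benjamini-Hochberg adjustment. Summaries were made with Python 3.11.15, pandas 2.3.3 and numpy 2.4.6. The 3 mice per strain are separate animals per the design text, and 6 arrays limit the precision. In a test on simulated data with 200 of 30011 probes changed, the fit found 0% of probes changed 1.5-fold, 43% changed 2-fold and 86% changed 4-fold. The data themselves held 1632 calls, so the adjusted threshold was stricter in the simulation than in the data.

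Named probes were every called histone probe, the 5 of highest signal per class, each variant gene's brightest, and any measured in only 1 strain. In each list of genes that act on histones, up to 4 called probes with the smallest p were named. The members, lists and rules were chosen with earlier results of these data known. Shared copies were found from accessions and from runs of at least 20 bases between probes. Probe positions are in mm9, per the array's annotation. Exon and UTR positions were not used here. Alternatives covered background correction (normexp, offset 50), scaling, filters, flagged spots, probes per gene, the authors' values, the prior, array weights, slide, replicate number and each mouse left out. Same-numbered mice did not deviate together (correlations 0.03, -0.17 and -0.08), so the numbers were not taken as pairs.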

Additional observations from a re-analysis of the deposited data

How the results depend on the processing

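The count of 8 called cluster probes was 6 to 10 under the other background correction, scalings, filters, priors, slide settings and 1 probe per gene, and 6 to 8 with a mouse left out. It was 13 with array weights (a fit that gave a convergence warning), 3 over probes with no second gene found and 1 without the H4 probes, a setting chosen after seeing the data. Hist1h2be, which entered only through its C57BL/6J arrays, is among the 9 with median scaling and the 10 with the trended robust prior. It is also among the 13 with array weights and the 8 without BTBR replicate 2. The variant count of 0 became 1 with a trended robust prior (H2afj, -0.59) and 2 with array weights (H2afj and H2afy2, in opposite directions). Over all probes, 1632 calls became 170 with normexp, 1083 with 1 probe per gene, 3928 with array weights and 858 to 1472 with a mouse left out. The cluster median of -0.18 was -0.042 within slide 1, -0.57 within slide 2 (1 mouse per strain, no test), 0.071 over probes with no second gene found, -0.018 without H4 and -0.25 to -0.10 with a mouse left out. The variant median of -0.01 was 0.061 with 1 probe per gene, -0.10 with array weights and -0.04 to 0.03 with a mouse left out. The 9 calls of the 3 gene lists became 0 with normexp and 4 to 10 with a mouse left out. The causes were not tested. Over 29 named probes and 546 alternative fits, 527 left the call as it was and 0 called values reversed. The call was lost in 14 (Hist1h2ab 7, Hist1h4i 7) and gained in 5 (H2afy2 1, Hist1h2be 4). The 4 of Hist1h2be are not read as results, since that probe passed the filter only through its C57BL/6J arrays.

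With the replicate number as a block, 7 cluster, 0 variant and 922 of all probes were called, and Hist1h2ab lost its call (limma adjusted p = 0.0846). The numbers mark no known pairing.

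Probes near the background floor, such as Hist1h2be, Hist1h2bp, H2afy2 and the germ-cell genes, are limited by signal over background. In the simulated data 0% of 1.5-fold changes were found, while the data held calls near that size (Ccna2 1.53-fold and Rrm2 1.55-fold). Changes of that size can be missed with 3 mice per strain.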

Other observations

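Other histone probes on the array lie outside the naming rule, and the following genes were chosen after their values were seen. A probe described as Hist1h2be but listed under a transcript identifier read -3.92, -3.87 and -3.71 in C57BL/6J and -3.47, -3.52 and -3.39 in BTBR (ENSMUST00000129312, 0.37 ± 0.11, limma adjusted p = 0.133). This is opposite in sign to the Hist1h2be probe of the report. Hinfp, the factor known to bind the H4 promoter element, differed by -0.10 ± 0.13 (limma adjusted p = 0.793) and 0.02 ± 0.21 (0.984) at its probes. It read -1.52, -1.69 and -1.34 against -1.69, -1.52 and -1.64 at the first of these, where the strains overlapped.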
